A study of Mus musculus with 22 samples.

Results

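Genes of fatty acid oxidation and known targets of the nuclear receptor PPAR alpha were followed across liver and 3 populations of male germ cells from mice with an extra chromosome segment. The genes were a list of 39 symbols, of which 38 had a probe set on the array under that symbol, out of 15780 genes named there. Each had 1 probe set, and only Acsl1 was not matched. Ts43H males are trisomic for the part of chromosome 17 next to its centromere, a trisomy derived from a translocation between chromosomes 16 and 17. They were set against euploid male siblings of genotype t121/D17. All males were adult, aged 2 months. There were 3 trisomic and 3 euploid arrays each for liver, for pre-mid-pachytene spermatocytes and for spermatids, and 2 trisomic and 2 euploid arrays for mid-late-pachytene spermatocytes, 22 in all. The germ cells were isolated from testis cell suspensions by flow sorting. Values are log2 intensities per probe set, as the authors deposited them. Where the segment ends is not stated in the sources used here, and the first 30 Mb of chromosome 17 stand for it. Nor is it stated that each array had its own animal, so that the p-values below measure only the spread between these samples, which may be technical.

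Fatty acids enter the cell and are bound by carrier proteins, activated to acyl-CoA and passed into mitochondria on carnitine, where each turn of beta-oxidation shortens the chain by a dehydrogenase, a hydratase, a second dehydrogenase and a thiolase. Peroxisomes run a parallel pathway for very long and dicarboxylic chains. PPAR alpha, bound to DNA with a retinoid X receptor and helped by the coactivator PGC-1 alpha, is the main regulator of these genes in the fasting liver. Germ cells in the testis are fed mostly lactate by Sertoli cells, and their use of fatty acids is less well described.

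The arrays of a group resembled each other closely, with Pearson correlations over genes of 0.988 to 0.997. Hepatocyte markers fitted the liver label: their array medians were between 15.89 and 16.12 in liver and at most 2.50 in the germ cells. Pachytene markers were at array medians of 11.42 to 14.73 in both spermatocyte populations. Spermatids had them at 13.92 to 14.26, so that they did not set spermatocytes apart from spermatids. Early meiotic markers were at 10.36 to 11.28 in pre-mid-pachytene, 7.83 to 8.47 in mid-late-pachytene and 8.23 to 8.84 in spermatid arrays. Round spermatid markers were at 13.21 to 13.87 in spermatids. Elongating spermatid markers were also high in the pre-mid-pachytene arrays, at 13.81 to 14.73 in trisomic and 13.97 to 14.54 in euploid arrays, and lower in the mid-late-pachytene arrays, at 10.80 to 10.98 in trisomic and 10.71 to 11.88 in euploid arrays. Of the euploid mid-late-pachytene arrays, replicate 1 had a round spermatid median of 10.73 and replicate 2 one of 9.11, against 9.63 and 9.82 in the trisomic arrays. In liver, trisomic replicate 2 stood farthest from the euploid arrays in genes known to differ between male and female liver, as given below. In all of these bulk samples, fewer cells of a type and less RNA per cell cannot be told apart.

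Nearly the whole list was expressed in liver and a smaller part of it in germ cells. A mean level of at least 4 was reached by 35 of the 38 genes in liver. In germ cells 21 reached it at the pre-mid-pachytene stage, 18 at the mid-late-pachytene stage and 20 in spermatids. Levels under 3 are called the background range here. Where a group mean lies in it, a difference between cell types is counted from the limit of 3 and given as "at least". Of the list, 35 genes had their highest mean in liver, Cpt1b and Hadha in mid-late-pachytene spermatocytes, and Fgf21 in spermatids. Against pre-mid-pachytene spermatocytes, 33 of the 38 genes were higher in trisomic liver and 32 in euploid liver, by an adjusted p under 0.05 in limma with Benjamini-Hochberg adjustment and a difference of at least 2-fold. Of all genes, 22.4% were higher in trisomic and 23.1% in euploid liver. None of the 38 was lower in liver, where 27% of all genes were lower in trisomic and 26.1% in euploid arrays. The calls in euploid arrays were all shared by trisomic arrays, and Acot3 was called in trisomic arrays alone. The map of group means shows this order.

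**Figure D1:**
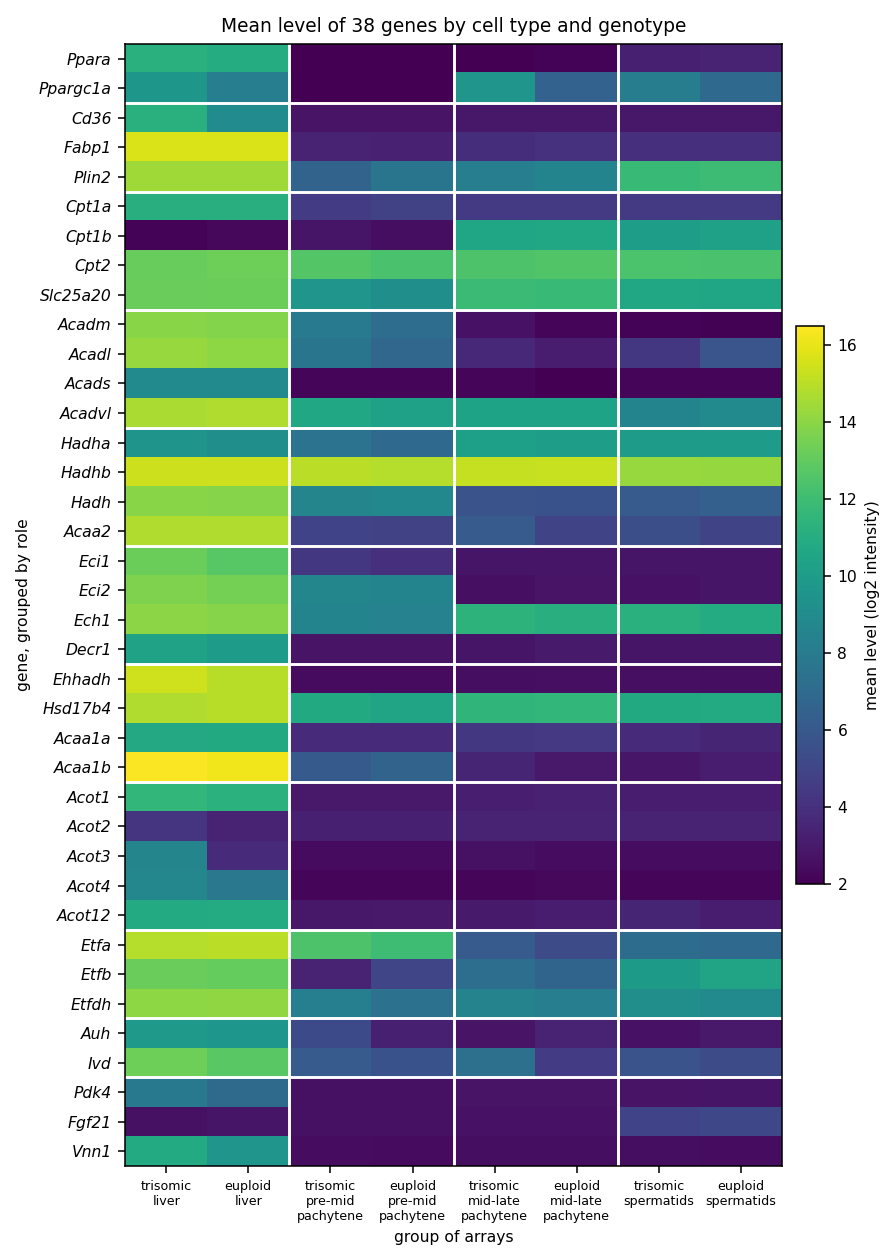
Mean log2 intensity of the 38 genes (rows, grouped by role and divided by white lines) in the 8 groups of arrays (columns, trisomic left of euploid in each cell type), averaged over 3 arrays, or 2 for mid-late-pachytene spermatocytes. Most rows are bright in liver and dark in germ cells, whereas Cpt1b is dark in liver and pre-mid-pachytene spermatocytes and bright in the later germ cells, and Hadhb and Cpt2 are bright throughout.

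The PPAR alpha gene itself, Ppara, averaged 11.21 ± 0.17 in trisomic and 10.97 ± 0.36 in euploid liver (SD, n = 3 each). Both spermatocyte populations had it at 1.99 to 2.13 on every array, in the background range. In spermatids trisomic replicate 3 reached 4.77 and euploid replicate 1 reached 5.43, while the other 4 arrays had 2.33 to 2.60. Ppargc1a, which encodes PGC-1 alpha, was a liver gene that was also expressed in the later germ cells: its means were 9.66 and 8.20 in trisomic and euploid liver, 1.78 and 1.45 in pre-mid-pachytene, 9.56 and 6.55 in mid-late-pachytene spermatocytes, and 8.15 and 6.98 in spermatids. Ppara was thus in the background range where Ppargc1a first appeared in germ cells.

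Large gaps between liver and pre-mid-pachytene spermatocytes were seen in several genes of fatty acid handling. Ehhadh, the bifunctional enzyme of peroxisomal beta-oxidation, was at least 12.45 log2 units higher in trisomic and at least 11.93 higher in euploid liver, since it was in the background range in the spermatocytes. Fabp1, the liver fatty acid binding protein, was 12.25 log2 units higher in trisomic and 12.34 higher in euploid liver. The peroxisomal thiolase gene Acaa1b was 10.29 log2 units higher in trisomic and 9.58 higher in euploid liver, and the mitochondrial thiolase gene Acaa2 9.88 and 9.95. Acaa1a and Acaa1b are near-identical copies, and Acot1 to Acot4 are related genes, so that probe sets within each of these sets may share signal. Every gene measured was called higher in liver in both genotypes among the regulators, uptake and storage genes, acyl-CoA dehydrogenases, auxiliary, peroxisomal, electron transfer and branched-chain genes. The shuttle did not follow as a group: Cpt1a and Slc25a20 were higher in liver, and Cpt1b and Cpt2 were not called.

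Between genotypes in liver, 6 of the 35 tested genes rose in trisomic arrays and none fell. They were the acyl-CoA thioesterase genes Acot3 and Acot4, the fatty acid transporter gene Cd36, the pantetheinase gene Vnn1, the pyruvate dehydrogenase kinase gene Pdk4 and the peroxisomal gene Ehhadh. Among all 8180 genes tested in liver, 5.77% were called higher, 3.78% lower and 9.55% in either direction. The median difference, trisomic minus euploid, was 0.15 log2 units over the 35 genes, and -0.01 over all genes tested. These calls rest on the spread shared by all 22 arrays: with the liver arrays alone, the values were the same and none of the 6 was called, with adjusted p of 0.129 to 0.272. In every germ cell group the 6 genes were in the background range. The SD of Acot3 was 1.89 in trisomic and 1.602 in euploid liver, against 0.026 and 0.016 in pre-mid-pachytene spermatocytes. For Cd36 it was 0.571 and 1.045, against 0.037 and 0.044. Ehhadh had 0.167 and 0.089 in liver, but also 0.177 in trisomic spermatids. For genes like Acot3 and Cd36 the SEs, adjusted p and intervals in liver may thus be too small. By role, 2 of 4 tested thioesterases, both tested targets with other roles (Pdk4 and Vnn1), 1 of 3 uptake and storage genes and 1 of 4 peroxisomal genes were called, and none of the 3 tested carnitine shuttle, 4 dehydrogenase, 4 hydratase and thiolase, 4 auxiliary, 3 electron transfer and 2 branched-chain genes.

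**Figure D2:**
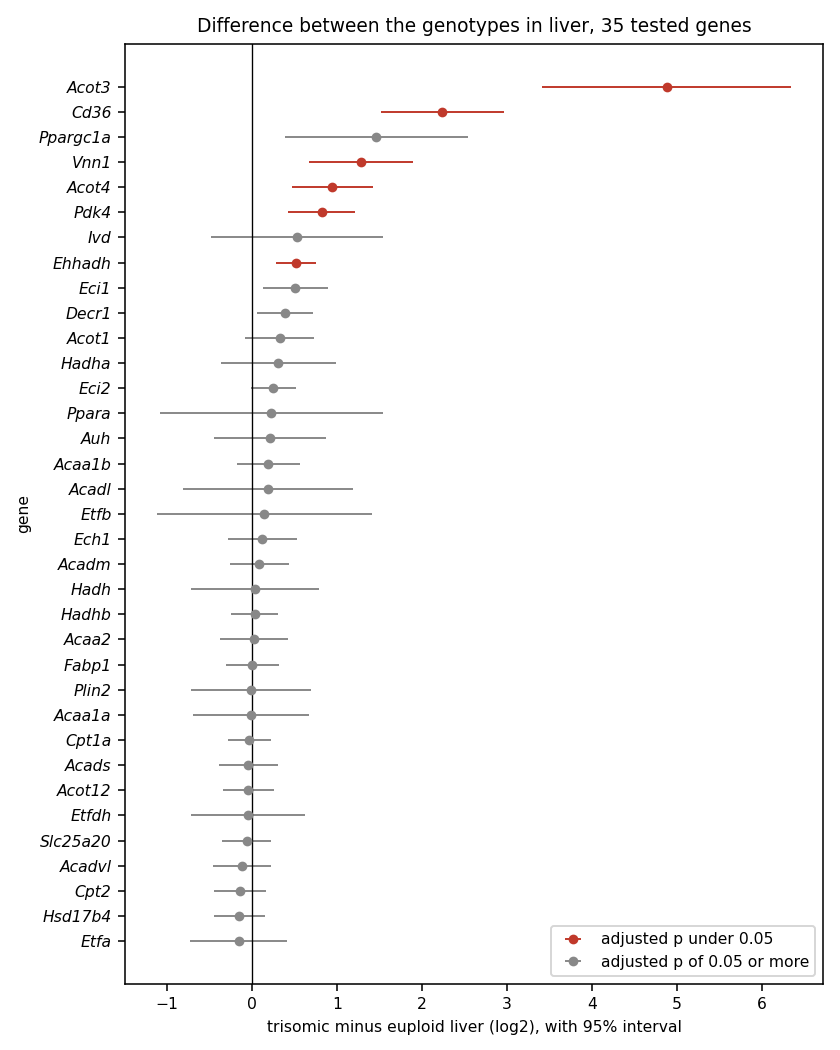
Trisomic minus euploid difference in liver (log2 units) for the 35 tested genes, with 95% confidence intervals from limma (3 trisomic and 3 euploid liver arrays, spread shared by all 22 arrays). The shared spread can be smaller or larger than the spread in liver alone. The 6 genes with an adjusted p under 0.05 are red and lie between 0.52 and 4.88, and the 4 acyl-CoA dehydrogenases lie between -0.11 and 0.19.

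Acot3, which hydrolyses medium- and long-chain acyl-CoA in peroxisomes, had 6.78, 10.56 and 8.50 in trisomic liver, against 3.26, 5.52 and 2.42 in euploid liver. All trisomic arrays were above all euploid ones, and the difference was 4.88 (SE 0.70, adjusted p = 0.000183). The euploid mean of Acot3, 3.73, was under the minimum mean of 4, so that the gene passed the filter only through its trisomic level. Euploid replicate 3, at 2.42, was in the background range. Acot4, its neighbour on chromosome 12, which acts on short dicarboxylic acyl-CoA, had 7.98, 9.15 and 9.06 in trisomic liver, against 7.53, 8.20 and 7.61 in euploid liver. Here the lowest trisomic array lay below the highest euploid one, and the difference was 0.95 (SE 0.23, adjusted p = 0.0116). Its call was lost without euploid replicate 3 (adjusted p = 0.0507), without trisomic replicate 2 (adjusted p = 0.0626) and without trisomic replicate 3 (adjusted p = 0.0527). Of the other thioesterases, Acot1, the cytosolic long-chain form, had a difference of 0.33 (adjusted p = 0.362) and Acot12, a cytosolic acetyl-CoA hydrolase, of -0.04 (adjusted p = 0.931). Acot2, the mitochondrial form, averaged 4.25 ± 0.52 in trisomic and 3.45 ± 0.15 in euploid liver (SD, n = 3 each), under the minimum mean of 4 over both, and was not tested.

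Cd36, which takes up long-chain fatty acids at the cell surface, had 10.78, 11.87 and 11.04 in trisomic liver, against 8.57, 10.18 and 8.22 in euploid liver. The arrays did not overlap, and the difference was 2.24 (SE 0.35, adjusted p = 0.000389), a 4.73-fold change. The other genes of fatty acid handling at entry showed no such gap. Fabp1 averaged 15.71 in trisomic and 15.70 in euploid liver, with a difference of 0.01 (95% interval -0.30 to 0.32), and Plin2, which coats lipid droplets, had a difference of -0.01 (95% interval -0.71 to 0.70). The Plin2 interval rests on the shared spread. The SD of Plin2 was 0.112 in trisomic and 0.031 in euploid liver, against 0.568 and 1.352 in mid-late-pachytene spermatocytes.

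Vnn1, a hepatic target of PPAR alpha, had 10.32, 11.09 and 11.13 in trisomic liver, against 9.21, 10.57 and 8.90 in euploid liver. The difference was 1.29 (SE 0.29, adjusted p = 0.00855), with euploid replicate 2 above trisomic replicate 1, and without euploid replicate 3 it was 0.96 (adjusted p = 0.0515). Pdk4, which shuts glucose-derived pyruvate out of the mitochondrion, had 7.40, 7.83 and 8.32 in trisomic liver, against 7.09, 6.65 and 7.33 in euploid liver. Its arrays did not overlap, and the difference was 0.83 (SE 0.19, adjusted p = 0.00825). Fgf21, the fasting hormone of the liver, stayed in the background range on 5 of the 6 liver arrays, at 2.63 to 2.66, with 3.21 in euploid replicate 2.

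Ehhadh had 15.26, 15.59 and 15.50 in trisomic liver, against 14.98, 14.82 and 14.98 in euploid liver. The arrays did not overlap, and the difference was 0.52 (SE 0.11, adjusted p = 0.00634), a 1.43-fold change. The gene lies on chromosome 16, starting at 21.76 Mb on GRCm38.p6. In the same pathway Hsd17b4, the other bifunctional enzyme, had a difference of -0.14 (adjusted p = 0.641), and Acaa1a of -0.01 and Acaa1b of 0.19 (adjusted p = 0.996 and 0.608).

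**Figure D3:**
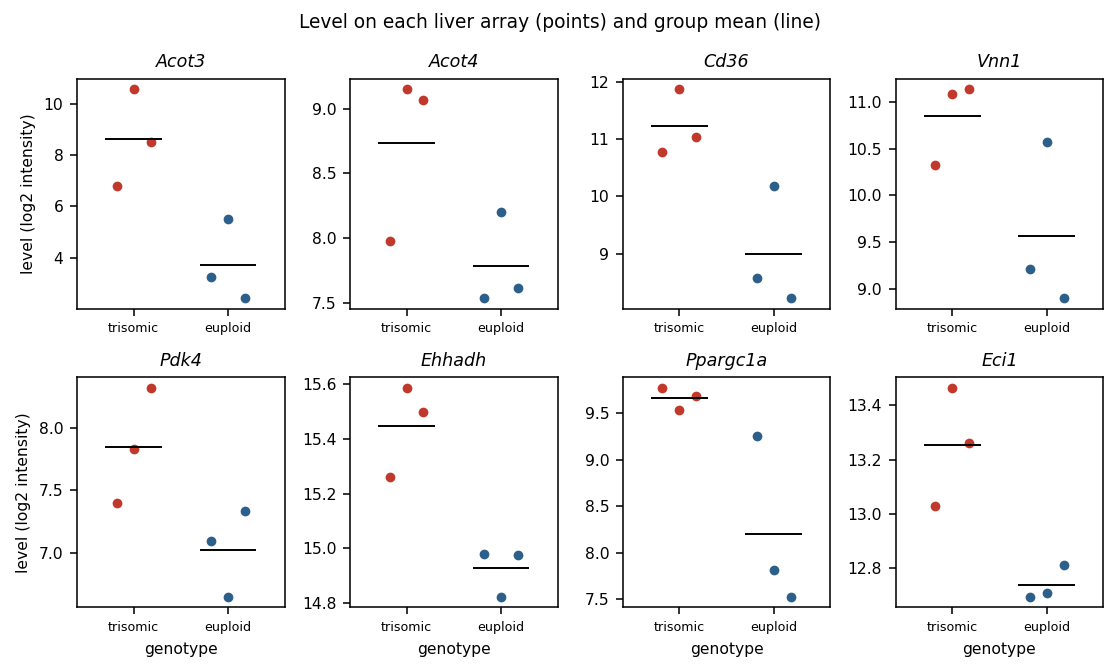
Log2 intensity on each of the 3 trisomic (red) and 3 euploid (blue) liver arrays for the 6 called genes and for Ppargc1a and Eci1, which were not called, with the group mean as a line; each panel has its own axis. Trisomic arrays lie wholly above euploid arrays for all panels but Acot4 and Vnn1, where 1 array of each group overlaps.

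Ppargc1a had 9.77, 9.54 and 9.68 in trisomic liver, against 9.26, 7.81 and 7.53 in euploid liver. The arrays did not overlap, but the difference of 1.47 (95% interval 0.39 to 2.54) had an adjusted p of 0.082. Without euploid replicate 1 it was 1.99 with an adjusted p of 0.0178. Ppara had 11.37, 11.22 and 11.03 in trisomic liver, against 10.58, 11.29 and 11.06 in euploid liver, and the difference was 0.23 (adjusted p = 0.904).

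Eci1, a mitochondrial enoyl-CoA isomerase needed for unsaturated chains, is the only gene of the list inside the trisomic segment, starting at 24.43 Mb on chromosome 17. It had 13.03, 13.46 and 13.26 in trisomic liver, against 12.70, 12.71 and 12.81 in euploid liver. All trisomic arrays were higher, the difference was 0.51 (95% interval 0.13 to 0.89), and the adjusted p was 0.0878. In pre-mid-pachytene spermatocytes it had 4.73, 4.03 and 4.36 in trisomic arrays, against 4.33, 4.06 and 3.57 in euploid arrays, and the difference of 0.39 was not called (adjusted p = 0.203). In both later germ cell populations it was in the background range on every array, at 2.76 to 2.89. Its partners outside the segment had liver differences of 0.26 for Eci2, 0.13 for Ech1 and 0.39 for Decr1 (adjusted p = 0.261, 0.799 and 0.136).

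No gene of the carnitine shuttle or of the mitochondrial cycle was called between genotypes in liver. Cpt1a, the carnitine acyltransferase that limits entry of fatty acids into the mitochondrion, had a difference of -0.03 (95% interval -0.28 to 0.23). Cpt2 and the carrier gene Slc25a20 had -0.14 and -0.06. The 4 acyl-CoA dehydrogenase genes Acadm, Acadl, Acads and Acadvl had 0.09, 0.19, -0.04 and -0.11, with adjusted p of 0.79 to 0.944. Hadha and Hadhb, the subunits of the trifunctional protein, had 0.31 and 0.03. The electron transfer flavoprotein genes Etfa and Etfb and their dehydrogenase gene Etfdh had -0.15, 0.15 and -0.05. The 95% intervals of several of these genes include differences as large as that of Ehhadh, such as that of Hadh at -0.71 to 0.80. These intervals rest on the spread shared by all arrays. The SD of Hadh was 0.168 in trisomic and 0.086 in euploid liver, against 0.396 and 0.314 in pre-mid-pachytene spermatocytes. The width of its interval thus does not come from the liver arrays alone.

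Arrays that did not overlap were found for 9 genes with trisomic liver higher and for 1, Etfa, with trisomic liver lower. The same was seen for 11.8% and 11.3% of all genes tested in liver.

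Further genes of the pathway came from lists of other genes. Of 41 other tested genes of oxidation and acyl-CoA handling, 3 rose and 1 fell in liver, a count near the background of 9.55%: Abcd2, a peroxisomal transporter of very long acyl-CoA, by 2.76 (adjusted p = 0.00723), Decr2, the peroxisomal dienoyl-CoA reductase, by 1.33 (adjusted p = 0.00305), and Nudt19, a CoA diphosphatase, by 0.70 (adjusted p = 0.019). Nudt7, the peroxisomal CoA diphosphatase, fell by 0.83 (adjusted p = 0.00211). Decr2 lies in the trisomic segment, at 13.13, 13.64 and 12.94 in trisomic liver, against 11.88, 11.94 and 11.89 in euploid liver. Of 26 further targets of PPAR alpha, 4 rose: the lipoprotein lipase gene Lpl by 3.65 (adjusted p = 6.51e-08) and the omega-hydroxylase genes Cyp4a31, Cyp4a14 and Cyp4a10 by 3.04, 2.47 and 1.07 (adjusted p = 0.000232, 0.00484 and 0.00291). Txnip, an inhibitor of thioredoxin, fell by 1.27 (adjusted p = 0.00134).

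The nuclear receptors and coregulators of the pathway were not called: 0 of 19 tested in liver by limma, with 2 at an unadjusted p under 0.05. The share of all genes tested in liver at that unadjusted p is not given here, so that the 2 have no background. Ppard, the related receptor in the trisomic segment, had 2.89 in trisomic and 2.37 in euploid liver, in the background range, and was not tested.

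Several of the genes that rose are also known to be higher in female than in male mouse liver, and these moved together in the male livers here. Of 14 tested genes on a list of female-biased genes, 12 rose and none fell. Of the 16 genes of this list on the array, 15 had a mean of at least 4 in trisomic liver and 10 in euploid liver. Some of those tested, Acot3 among them, thus passed the filter only through their trisomic level, which fixed their direction. That list holds Acot3, Cd36, Cyp4a10, Cyp4a14 and Abcd2, which were given as called above and are counted again here. Of 16 tested male-biased genes, 11 fell and none rose, and Nudt7 is counted again among them. Of all genes tested in liver, 5.77% were called higher and 3.78% lower. Relative to the euploid mean, the median of the 12 tested female-biased genes outside the fatty acid list was 2.17, 4.39 and 2.57 on the trisomic arrays, against -0.06, 1.20 and -0.76 on the euploid arrays, and that of the male-biased genes -1.14, -4.01 and -1.85, against 0.00, -0.64 and 0.71. Trisomic replicate 2 and euploid replicate 2, the arrays with the highest female-biased medians in their groups, also had the highest Acot3, Acot4 and Cd36 levels of their groups. The other called genes followed in part. Among the euploid arrays Vnn1 was highest on replicate 2, and among the trisomic arrays Ehhadh was highest on replicate 2. Pdk4 and Ehhadh were lowest on euploid replicate 2, and Vnn1 and Pdk4 were not highest on trisomic replicate 2. The part of this shift in the results above was not tested. Both lists were chosen with this shift already known. The calls of Acot3, Cd36, Pdk4 and Ehhadh held without any 1 liver array, and without trisomic replicate 2 the differences of Acot3 and Cd36 were 3.91 and 1.92.

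Some markers of other liver cells differed between the genotypes. None of 11 hepatocyte markers was called by limma, with 1 at an unadjusted p under 0.05, none of 5 Kupffer cell and none of 4 endothelial markers was called, and 1 of 6 stellate cell markers rose. Relative to the euploid mean, the median of the 6 stellate markers was 0.61, 0.58 and 0.24 on the trisomic arrays, against 0.02, -0.01 and 0.08 on the euploid arrays, so that every trisomic array was higher. Array medians of all 8 stellate markers overlapped, at 8.19 to 8.33 in trisomic and 7.90 to 8.30 in euploid liver, as did those of the Kupffer cell markers, at 6.73 to 7.57 and 6.60 to 7.56. The fat cell markers were at 2.24 to 2.55 in trisomic and 2.81 to 3.43 in euploid liver, and the 2 erythroid markers at 6.52 to 7.07 and 7.41 to 7.75. The medians of both lists were lower on every trisomic array. In each genotype only 1 of the 4 fat cell and 1 of the 2 erythroid markers had a mean of at least 4. These medians thus rest partly on levels in the background range and do not show that either list fell as a whole. The part of these markers in the results was not tested.

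PPAR alpha binds direct repeats of a short element, and the promoters were searched for such a repeat to show what the genes of the list carry near their start. The motif was 2 copies of AGGTCA in the same orientation with 1 base of any kind (N) between them, searched on both strands with up to 2 mismatches, in the 250 bases before and 50 after each start in RefSeq on GRCm38.p6. Of the 33 genes with a window, 7 (21.2%) held a match, against 4.4% of all genes with a window, and 2 (6.06%) against 0.644% held one with up to 1 mismatch. Since the list was chosen to hold known targets of PPAR alpha, these shares are no result of the arrays. The 4 promoters below are those of the 2 closest matches, Fabp1 and Acot12, neither called in liver, and of 2 genes that rose there, Acot4 and Cd36. The matching 13 bases, which read as the opposite strand of the motif, are in capitals.
Fabp1: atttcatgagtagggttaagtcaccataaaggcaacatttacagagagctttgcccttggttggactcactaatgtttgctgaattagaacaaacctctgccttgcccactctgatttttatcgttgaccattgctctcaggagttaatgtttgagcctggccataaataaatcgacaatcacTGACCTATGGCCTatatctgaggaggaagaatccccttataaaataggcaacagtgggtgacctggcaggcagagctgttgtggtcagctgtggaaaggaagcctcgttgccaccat
Acot12: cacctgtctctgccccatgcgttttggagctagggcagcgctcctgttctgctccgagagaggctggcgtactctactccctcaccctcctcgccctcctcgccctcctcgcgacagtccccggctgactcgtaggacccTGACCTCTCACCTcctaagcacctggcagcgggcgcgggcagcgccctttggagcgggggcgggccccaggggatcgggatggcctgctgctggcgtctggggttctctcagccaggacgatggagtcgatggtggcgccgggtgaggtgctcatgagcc
Acot4: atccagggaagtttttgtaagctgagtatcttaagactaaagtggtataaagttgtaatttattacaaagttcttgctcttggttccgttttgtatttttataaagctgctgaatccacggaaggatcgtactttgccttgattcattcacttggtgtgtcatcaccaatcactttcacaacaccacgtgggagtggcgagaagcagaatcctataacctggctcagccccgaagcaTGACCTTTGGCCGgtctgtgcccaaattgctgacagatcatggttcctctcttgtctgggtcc
Cd36: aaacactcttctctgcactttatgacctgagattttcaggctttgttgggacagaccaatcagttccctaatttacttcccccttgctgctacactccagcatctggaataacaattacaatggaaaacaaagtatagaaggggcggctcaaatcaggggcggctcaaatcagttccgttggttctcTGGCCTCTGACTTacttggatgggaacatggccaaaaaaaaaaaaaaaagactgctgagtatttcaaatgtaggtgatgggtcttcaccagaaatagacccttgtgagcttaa
These windows are chr6:71199629-71199928 (plus strand), chr13:91741271-91741570 (plus strand), chr12:84038129-84038428 (plus strand) and chr5:17835847-17836146 (minus strand), each written 5′ to 3′ along its gene. The matches begin 67, 110, 13 and 63 bases before the start. Plin2, Etfa and Slc25a20 held the other 3 matches. The windows of Acot3, Ehhadh, Pdk4 and Ppargc1a held none, which says only that these letters are not in these 300 bases. Vnn1 had no window and was not searched.

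Between the spermatocyte stages part of the list rose and part fell, in shares near those of all genes. In mid-late-pachytene against pre-mid-pachytene spermatocytes, 8 of the 38 genes rose and 8 fell in trisomic arrays, and 6 rose and 7 fell in euploid arrays. Of all genes, 20.2% rose and 18.4% fell in trisomic arrays, and 21% rose and 18.1% fell in euploid arrays, so that the counts of the list were near the background. In both genotypes Cpt1b, Ppargc1a, Hadha, Ech1 and Slc25a20 rose, and Etfa, Eci2, Acadm, Acadl, Hadh, Acaa1b and Eci1 fell. Called in trisomic and not in euploid arrays, Etfb, Plin2 and Acaa2 rose by 3.85, 1.56 and 1.26 and Auh fell by at least 2.26. The Plin2 call was lost without trisomic mid-late-pachytene replicate 2 (adjusted p = 0.0655) and in the fit of these cell types by themselves (adjusted p = 0.0532). The difference between the genotypes in these steps was not tested. Elongating spermatid markers were higher in the pre-mid-pachytene arrays than in the mid-late ones, as given above, and the part of this in the stage differences was not tested.

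**Figure D4:**
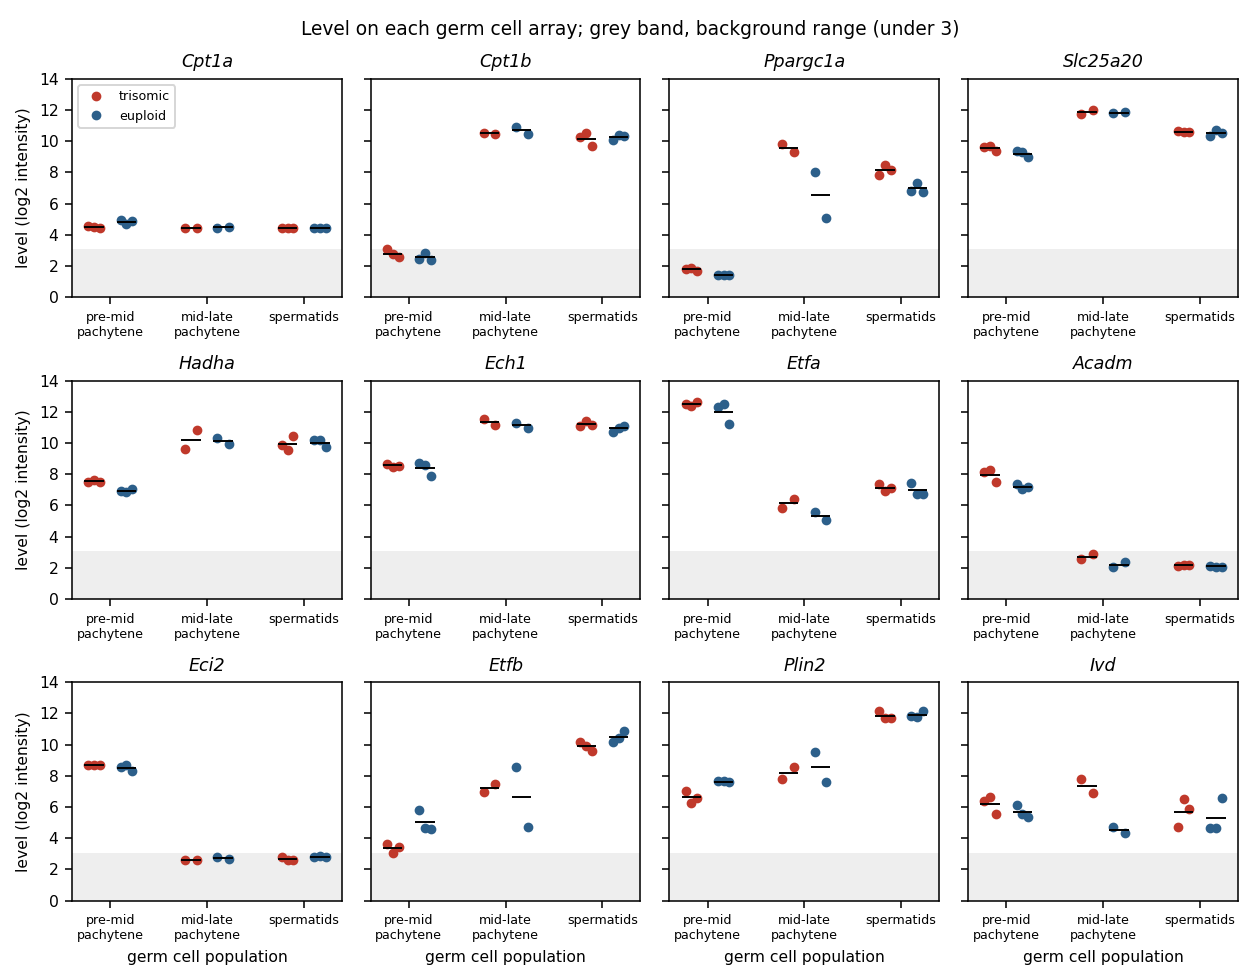
Log2 intensity on each trisomic (red) and euploid (blue) germ cell array for 12 genes, with group means as lines, at the pre-mid-pachytene, mid-late-pachytene and spermatid stages (3, 2 and 3 arrays of each genotype); the grey band marks the background range under 3. Cpt1b and Ppargc1a leave the band at mid-late pachytene, Acadm and Eci2 enter it there, and Etfb and Plin2 are highest in spermatids.

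Of the carnitine shuttle, Cpt1b and Slc25a20 rose at mid-late pachytene, and Cpt1a and Cpt2 were not called. Cpt1b, the muscle form of carnitine palmitoyltransferase 1, had 3.07, 2.78 and 2.56 in trisomic and 2.44, 2.86 and 2.37 in euploid pre-mid-pachytene spermatocytes. At the mid-late-pachytene stage it had 10.54 and 10.50 in trisomic and 10.92 and 10.48 in euploid arrays, and in spermatids 9.71 to 10.50 and 10.10 to 10.43. The first step, out of the background range, was at least 7.52 log2 units in trisomic (adjusted p = 8.27e-14) and at least 7.70 in euploid arrays (adjusted p = 5.12e-14). The liver form, Cpt1a, lay between 4.42 and 4.96 on every germ cell array and was not called between stages. Slc25a20, which carries acylcarnitine across the inner membrane, rose by 2.30 in trisomic and 2.63 in euploid arrays and then fell by 1.24 and 1.32 in spermatids. Cpt2, which returns the acyl group to CoA inside the mitochondrion, was at 12.05 to 12.70 on all germ cell arrays.

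Of the mitochondrial cycle, Acadm, Acadl and Hadh fell while Hadha, the alpha subunit of the trifunctional protein, rose. Acadm, the medium-chain dehydrogenase, fell by at least 4.98 in trisomic and 4.21 in euploid arrays between the spermatocyte stages, into the background range at 2.72 and 2.20, and stayed at 2.06 to 2.17 in spermatids. Acadl, the long-chain form, fell by 3.97 and 3.70. Acads, the short-chain form, was in the background range throughout the germ cells, at 1.89 to 2.21. Acadvl, the very-long-chain form, was retained at 10.38 and 10.42 in mid-late-pachytene spermatocytes and fell by 1.84 in trisomic and 1.46 in euploid spermatids. Hadha rose by 2.67 in trisomic and 3.20 in euploid mid-late-pachytene spermatocytes, and its partner Hadhb changed by less than 2-fold, with means of 15.22 and 15.28 there. Hadh, which acts on shorter hydroxyacyl-CoA, fell by 2.93 and 3.10.

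Among the auxiliary enzymes of unsaturated chains, Eci2 and Ech1 went opposite ways. Eci2 fell by at least 5.68 in trisomic and 5.52 in euploid mid-late-pachytene spermatocytes, into the background range. Ech1, a dienoyl-CoA isomerase, rose by 2.80 and 2.71. Eci1 fell by at least 1.37 and 0.98, to levels in the background range, and its measured euploid change of -1.14 missed the 2-fold limit after centring each array on its autosomal median, at -0.82. Such centring moved the median of all genes by up to 0.37 between cell types, which is small against most changes given here. The peroxisomal Acaa1b fell by 2.57 in trisomic and at least 3.62 in euploid arrays. Hsd17b4, at 10.36 to 11.62 on every germ cell array, was called in euploid arrays only, where it rose by 1.12, and that call was lost after quantile normalization, at 0.60.

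The subunits of the electron transfer flavoprotein followed different courses. Etfa, the alpha subunit, had 12.48, 12.35 and 12.61 in trisomic and 12.28, 12.49 and 11.24 in euploid pre-mid-pachytene spermatocytes, and fell by 6.33 and 6.69 at mid-late pachytene. Etfb, the beta subunit, averaged 3.39 in trisomic and 5.03 in euploid pre-mid-pachytene spermatocytes and 9.89 and 10.48 in spermatids. Its mid-late-pachytene arrays had 6.99 and 7.49 in trisomic and 8.57 and 4.72 in euploid cells, so that the euploid arrays were far apart there. Etfdh, which passes the electrons to ubiquinone, stayed at 6.35 to 9.49 on all germ cell arrays and was not called between stages.

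In spermatids against mid-late-pachytene spermatocytes, 3 genes rose and 3 fell in trisomic arrays and 5 rose and 3 fell in euploid arrays, where 12.9% of all genes rose and 13.2% fell in trisomic arrays and 13.4% rose and 13.4% fell in euploid arrays. In both genotypes Plin2, Etfb and Fgf21 rose and Slc25a20 and Acadvl fell. Called in trisomic and not in euploid arrays, Ivd fell by 1.64. That call was lost without trisomic mid-late-pachytene replicate 1 (adjusted p = 0.287), without trisomic spermatid replicate 1 (adjusted p = 0.148) and in the fit of these cell types by themselves (adjusted p = 0.154). Called in euploid and not in trisomic arrays, Acadl and Etfa rose by 2.72 and 1.65 and Hadhb fell by 1.07, which was -0.98 without euploid spermatid replicate 3. The difference between the genotypes in these steps was not tested either. Plin2 rose by 3.64 in trisomic and 3.38 in euploid spermatids, to 11.84 and 11.93. Fgf21 had 5.15, 5.00 and 4.66 in trisomic and 5.91, 5.35 and 4.23 in euploid spermatids, and was at 2.65 to 2.72 on every spermatocyte array. Spermatids were thus the only population here with Fgf21 above 4 on every array.

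Between genotypes in pre-mid-pachytene spermatocytes, 2 of 21 tested genes rose and none fell, where 5.88% of all genes were called higher, 4.46% lower and 10.3% in either direction. Both calls were lost when these arrays were fitted alone (adjusted p = 0.0882 and 0.133). Auh, which hydrates methylglutaconyl-CoA in leucine breakdown and binds RNA, had 5.29, 5.45 and 5.03 in trisomic arrays, against 3.54, 3.49 and 2.73 in euploid arrays. The arrays did not overlap, and the difference was 2.00 (SE 0.31, adjusted p = 0.00153). The euploid mean of Auh, 3.25, was under the minimum mean of 4, so that the gene passed the filter only through its trisomic level. Euploid replicate 3, at 2.73, was in the background range. Acadm had 8.15, 8.27 and 7.51 in trisomic arrays, against 7.36, 7.07 and 7.19 in euploid arrays, and the difference was 0.77 (SE 0.17, adjusted p = 0.0117). Without trisomic replicate 1 or 2 the adjusted p of Acadm was 0.0675 or 0.07. The median difference was 0.31 over the 21 genes and 0.11 over all genes tested.

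Genes near the threshold lay on both sides in these cells. Plin2 had 7.05, 6.28 and 6.58 in trisomic arrays, against 7.64, 7.67 and 7.58 in euploid arrays, a difference of -0.99 (adjusted p = 0.0646). Etfb had 3.66, 3.05 and 3.46, against 5.79, 4.68 and 4.62, a difference of -1.64 (adjusted p = 0.0837). Both sets of arrays were separate, and both genes are highest among germ cells in spermatids. The trisomic mean of Etfb, 3.39, was under the minimum mean of 4, so that Etfb passed the filter only through its euploid level. Of 8 round spermatid markers, 3 fell in the trisomic arrays and none rose, with array medians of 9.18 to 9.58 in trisomic and 9.50 to 10.34 in euploid arrays. The part of this in the results was not tested. Of the other pathway genes, Hacl1, a peroxisomal alpha-oxidation lyase, rose by 0.74 (adjusted p = 0.0154), Creb3l3, a liver transcription factor that works with PPAR alpha, by 0.82 (adjusted p = 0.032) and Sirt3, the mitochondrial deacetylase, by 0.75 (adjusted p = 0.0203). Oxct1, which breaks down ketone bodies, fell by 0.74 (adjusted p = 0.0299), and Nrip1, a corepressor of nuclear receptors, fell by 1.42 (adjusted p = 0.0232). The Nrip1 gene is on chromosome 16.

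In mid-late-pachytene spermatocytes 3 of 18 tested genes rose in trisomic arrays and none fell, where 0.569% of all genes were called higher, 0.396% lower and 0.965% in either direction. With 2 arrays a group these calls were fragile. They were lost in a fit of these arrays alone (adjusted p = 0.4 to 0.894), and without trisomic replicate 1 none was called. The median difference was 0.02 over the 18 genes and 0.00 over all genes tested.

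Ppargc1a had 9.83 and 9.29 in trisomic arrays, against 8.01 and 5.10 in euploid arrays. The difference was 3.01 (SE 0.62, adjusted p = 0.0204), and without euploid replicate 2 it was 1.56 (adjusted p = 0.107). Ivd, the dehydrogenase of isovaleryl-CoA in leucine breakdown, had 7.78 and 6.90, against 4.69 and 4.31, a difference of 2.84 (SE 0.58, adjusted p = 0.0204). Acaa2 had 6.27 and 6.08, against 4.92 and 5.07, a difference of 1.18 (SE 0.24, adjusted p = 0.0202). In all 3 genes both trisomic arrays were above both euploid arrays, as for 17.7% of all genes tested there. Without euploid replicate 1 Ppargc1a and Ivd kept their calls, Acaa2 had an adjusted p of 0.0621, and Etfb was called at 2.51 (adjusted p = 0.00187). Without euploid replicate 2 only Acaa2 kept its call, and Plin2 was called at -1.31 (adjusted p = 0.0396). These are the 2 euploid arrays that differ in round spermatid markers, and the part of that difference was not tested.

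In spermatids none of the 20 tested genes was called by limma, with 4 at an unadjusted p under 0.05. Of all genes tested there, 0.29% were called higher, 0.531% lower and 0.821% in either direction, and 8.69% had an unadjusted p under 0.05. The largest differences were -1.49 for Acadl, with 3.98, 3.72 and 5.31 in trisomic against 6.04, 4.81 and 6.62 in euploid arrays (adjusted p = 0.196), and 1.17 for Ppargc1a, with 7.81, 8.46 and 8.18 against 6.82, 7.35 and 6.77 (adjusted p = 0.476). The Ppargc1a arrays did not overlap, and those of Acadl did. Without euploid replicate 2 Acadl was called at -1.99 (adjusted p = 0.0449), and without trisomic replicate 2 Acaa2 was called at 0.80 (adjusted p = 0.0253). Pre-mid-pachytene spermatocytes also had Ppargc1a higher on every trisomic array, at 1.67 to 1.86 against 1.44 to 1.45, but within the background range, where it was not tested.

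The genotype difference of liver was set directly against that of each germ cell population. Against pre-mid-pachytene spermatocytes 1 of 21 genes was called, where 5.21% of all genes were. That gene was Auh, with 9.04, 10.61 and 9.82 in trisomic liver, against 9.57, 9.47 and 9.78 in euploid liver. Its liver difference of 0.21 minus the spermatocyte difference of 2.00 gave -1.79 (SE 0.44, adjusted p = 0.026). In the spermatocytes Auh passed the filter only through its trisomic level, as given above. Against mid-late-pachytene spermatocytes none of 17 was called by limma, with 3 at an unadjusted p under 0.05, and against spermatids none of 18, with 1. Of all genes, 0.924% and 0.982% were called there. The share of all genes at an unadjusted p under 0.05 is not given here. These counts of 3 and 1 thus have no background to be read against. For Ppargc1a the liver difference minus the mid-late-pachytene difference was -1.54 (adjusted p = 0.501), and for Ivd it was -2.31 (adjusted p = 0.189). Without euploid mid-late-pachytene replicate 1, Ppargc1a was called at -2.99 (adjusted p = 0.00988) and Etfb at -2.37 (adjusted p = 0.0173). Acot3, Cd36, Vnn1, Pdk4, Acot4 and Ehhadh were in the background range in all germ cell groups, so that their liver difference had no counterpart to be tested against.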

How the data were processed

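The authors made the log2 intensities they deposited with GCRMA, per the submitters' processing notes; its version is not given in the sources used here. GCRMA subtracts a background modelled from probe GC content, sets arrays to a common distribution and summarises probes, which compresses differences at low levels. Of 16539 probe sets in the table, 15780 have 1 gene symbol and 759 have none. Array medians were 4.10 to 4.69, and the number of arrays limits the precision. Sequences and positions came from RefSeq tables of GRCm38.p6, which placed 15749 of the named genes.

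One limma 3.58.1 model (R 4.3.3) of 8 group means over all 22 arrays gave two-sided tests with Benjamini-Hochberg adjustment over all genes tested. Genotypes were compared over genes whose mean level reached 4 in that cell type (in both, for a difference of differences), and cell types over all named genes with a minimum change of 2-fold. Scripts were tested on simulated data. The genes and the other lists were chosen with earlier results of these data known. Array values are given for genes called between genotypes, for Ppara and Ppargc1a and for genes on chromosome 16 or in the segment, other pathway genes are named where called, up to 6 a direction, and differences between cell types up to 8 a direction by size. Values of Plin2, Etfb and Acadl in germ cells were added after they were seen. Alternatives were the filter, quantile normalization, centring, limma with trend and robust spread, array weights, the compared cell types alone, the replicate number as a block and each array left out. Figures were drawn with python 3.11.15 and matplotlib 3.10.9.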

Additional observations from a re-analysis of the deposited data

Results flagged for a closer look

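Auh stood out because its genotype difference was not the same in liver and in pre-mid-pachytene spermatocytes, by a test of the difference itself: liver minus spermatocytes was -1.79 (limma, adjusted p = 0.026). Over the alternatives the value ran from -2.18 to -1.40 and the adjusted p from 0.0053 to 0.0741. The call was lost in the fit of these cell types alone and without euploid liver replicate 3, euploid pre-mid-pachytene replicate 3, trisomic liver replicate 1 or trisomic pre-mid-pachytene replicate 1 or 2.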

How the results depend on the processing

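No called value changed its direction under any alternative. In liver the same 6 genes were called with a minimum mean of 6, quantile normalization, centring, array weights and limma with trend and robust spread, 7 were called with no filter, and 4 to 8 with 1 array left out. Fitting the compared cell types alone gave 0 genes in liver, 0 in pre-mid-pachytene and 0 in mid-late-pachytene spermatocytes. A minimum mean of 6 gave 1 gene in pre-mid-pachytene and 0 in mid-late-pachytene spermatocytes, and 0 for the genotype difference of liver minus that of pre-mid-pachytene spermatocytes. Array weights gave 7 (3 higher, 4 lower) in pre-mid-pachytene and 1 in mid-late-pachytene spermatocytes, and 3 for that difference of differences. For the differences of differences, no filter gave 4, 1 and 2 genes against the pre-mid-pachytene, mid-late-pachytene and spermatid stages, and centring gave 2 against pre-mid-pachytene spermatocytes. With 1 array left out, the counts ran from 1 to 3 in pre-mid-pachytene spermatocytes, from 0 to 3 at the mid-late-pachytene stage (the lone array then being assumed to vary like the other groups), from 0 to 1 in spermatids, and from 0 to 2 for the genotype difference of liver minus that of pre-mid-pachytene or of mid-late-pachytene spermatocytes. Replicate numbers did not clearly pair the samples: of 11 same-numbered pairs, 4 had deviations correlated above 0.1, with a range of -0.131 to 0.36. In liver the same-numbered pairs had 0.074, 0.243 and 0.114, against -0.206 to 0.08 for the others, so that pairing there is not excluded. At the mid-late-pachytene stage, with 2 arrays a group, these correlations cannot tell. With the replicate number as a block, 7 genes were called in liver (Ppargc1a added, adjusted p = 0.0442), 2 in pre-mid-pachytene, 3 at the mid-late-pachytene stage and 0 in spermatids, and Ivd was no longer called between spermatids and mid-late-pachytene spermatocytes in trisomic arrays (adjusted p = 0.085). The counts between cell types stayed within 1.5 times. Of 3535 values of uncalled genes under the alternatives, 262 changed sign and 61 became called.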
